A study of Mus musculus with 469 samples.

Results

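The S, G2 and M phase genes described here are 41 of the 23281 genes measured in single cells of the mouse olfactory epithelium. They were taken from a fixed list, which was chosen with earlier results of these data known. The list holds 29 genes of G2 and mitosis and 12 genes of S phase, and all 41 were measured. The libraries were made with the Fluidigm C1 system, which captures single cells and amplifies their polyadenylated RNA. Cells sorted for the Neurog1-eGFP reporter came from FVB Neurog1-eGFP mice that were uninjured (61 libraries), 5 days after olfactory bulbectomy (51 libraries) or 14 days after it (26 libraries). Cells sorted for OMP-eGFP came from B6 OMP-eGFP mice, either 14 days after bulbectomy (50 libraries) or after transplantation, called engrafted here (89 libraries). The unsorted reference came from wild-type B6;129SF1/J (F1) epithelium in 2 runs of 96 libraries each. All mice were 8 weeks old. Bulbectomy removes the olfactory bulb, so that the sensory neurons lose their target, die and are replaced from basal cells.

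A cycling cell copies its DNA in S phase and separates the copies in mitosis. Cyclin-dependent kinases drive both steps, and most genes of G2 and mitosis are transcribed late in the cycle and silent in resting cells. Many S phase genes also serve DNA repair and nucleotide supply, and their RNA can be present outside S phase. In the olfactory epithelium the dividing cells of the neuronal lineage are the globose basal cells, which pass through a Neurog1 stage before they give rise to neurons. The Neurog1-eGFP protein outlasts the Neurog1 RNA, so the sort also collects young neurons that have left the cycle. OMP marks mature sensory neurons, which do not divide.

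The labels name no animal, so each group is 1 sample, no difference between groups was tested, and intervals cover the counting of cells only. Libraries with 1000 or more genes were kept. In 3 pairs (2 at 5 days, 1 in the reference) the libraries correlated at 0.943 to 0.994, while no other pair of libraries with up to 10000 genes within a group passed 0.652, and each pair was counted as 1 cell. This left 46 uninjured, 46 5 day and 25 14 day Neurog1 cells, 42 OMP 14 day cells, 29 engrafted OMP cells and the reference cells. Median depth was 848317, 1136941 and 1099226 fragments in the uninjured, 5 day and 14 day Neurog1 cells, 1347935 in OMP 14 day cells, 501826 in engrafted cells and 504103 in the reference. In the reference, 9 libraries held more than 10000 genes and stood apart: they correlated with one another at 0.817 to 0.953 and with the other reference libraries at 0.586 or less. They were not averaged, and shares and counts for the reference are given with and without them. Neurog1 RNA was found in 23 of 46 uninjured, 17 of 46 5 day and 12 of 25 14 day Neurog1 cells, and Omp RNA in 27, 17 and 8 of them, so many cells of these sorts lacked RNA of the sorted gene.

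G2 and M phase genes were concentrated in very few cells. A gene is called found in a cell from 10 CPM upwards, where CPM is the share of a cell's signal scaled to a sum of 1000000. With 5 or more of the 29 genes found as the limit, 1 of 46 uninjured Neurog1 cells passed (2.17%, exact 95% interval 0.055 to 11.5%). At 5 days 1 of 46 cells passed (2.17%, 0.055 to 11.5%), and at 14 days 3 of 25 (12%, 2.55 to 31.2%). The 3 intervals overlap. With 1 sample in each sort, a difference in the share of such cells between uninjured, 5 day and 14 day sorts was not tested. No OMP cell passed: the 0 of 42 at 14 days leave room for up to 7.14%, and the 0 of 29 engrafted cells for up to 10.3%. In the reference 9 cells passed (6.57%, 3.05 to 12.1%), 6 of them among the 9 libraries with more than 10000 genes, and without those libraries 3 cells passed (2.34%, 0.486 to 6.7%).

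**Figure D1:**
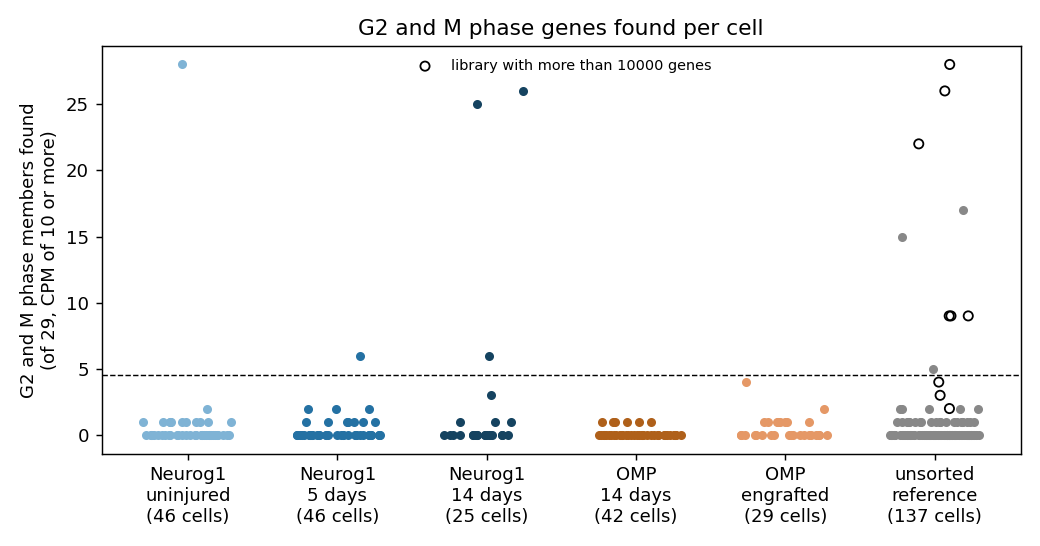
Number of the 29 G2 and M phase genes found (CPM of 10 or more, vertical axis) in each cell (points, spread sideways by chance) of the 6 groups; the dashed line separates cells with 5 or more, and open circles are reference libraries with more than 10000 genes. Of the Neurog1 cells 5 lie above the line, at 28 genes (uninjured), 6 (5 days) and 6, 25 and 26 (14 days), and no OMP cell does.

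The cells fell into a few with most of the genes and many with almost none, as the plot of genes per cell shows. Cell q10 of the uninjured sort (numbered as in the sample titles) held 28 of the 29 genes, all but Bub1. At 14 days cell q132 held 26, without Ccna2, Bub1 and Cdc20, and cell q128 held 25, without Aurkb, Ttk, Ndc80 and Nusap1. Of the 29 genes 22 were found in each of these 3 cells. The other 2 cells past the limit held 6 genes each: cell q82 at 14 days, and the 5 day cell sequenced as libraries q90 and q91. The nearest Neurog1 cell below the limit was cell q138 at 14 days with 3 genes, and every other Neurog1 cell held at most 2. A single gene or 2 were found in 12 of 46 uninjured and 10 of 46 5 day cells, and 1 to 3 in 4 of 25 14 day cells. Such sparse findings also occurred in the sorts of mature neurons, which give the background: 1 gene each in 6 of 42 OMP 14 day cells, and 1 to 4 genes in 10 of 29 engrafted OMP cells. Engrafted cell q153, with 1262 genes from 76858 fragments, held 4, among them Mki67 at 846 CPM and Ttk at 247.2 CPM. Of the 29 genes 18 were found in no Neurog1 cell outside these 5, among them Cdk1, Ccnb1, Aurkb, Plk1, Birc5 and Tpx2.

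The cyclins and Cdk1 form the kinases that drive entry into mitosis. Cdk1, the kinase itself, was at 691 CPM in cell q10 of the uninjured sort, at 112.7 and 328.3 CPM in cells q128 and q132 at 14 days, and at 0 in cell q82 and in the 5 day cell. Ccnb1, the cyclin that binds it in mitosis, was at 1137 CPM in cell q10 and at 140.2 and 1072 CPM in cells q128 and q132. Ccnb2, the other mitotic B cyclin, was at 276.4 CPM in cell q10 and at 321.7 and 607 CPM in cells q128 and q132. All 3 genes were thus found in the same 3 cells. Ccna2, the cyclin of S and G2 phase, was placed differently: it was at 588 CPM in cell q10, 479 CPM in the 5 day cell and 75 CPM in cell q128, but at 2.66 CPM in cell q132. Ccna2 was also found outside the 5 cells, in 2 other uninjured, 2 other 5 day, 2 OMP 14 day and 4 engrafted OMP cells, so a finding of Ccna2 alone did not mark them.

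The mitotic and checkpoint kinases followed the same cells. Plk1, which acts from centrosome maturation to cytokinesis, was at 273.9 CPM in cell q10 and at 22.8 and 86.3 CPM in cells q128 and q132. Aurkb, the kinase of the chromosomal passenger complex, was at 168.4 CPM in cell q10 and 433.8 CPM in cell q132, and at 0 in cell q128. Its partners Birc5 (survivin) and Cdca8 (borealin) were both found in cells q10, q128 and q132. Of the passenger genes, cell q82 held only Cdca8, at 410.7 CPM. Bub1 and Bub1b, kinase family members of the spindle checkpoint, diverged: Bub1b was found in cells q10, q82, q128 and q132 at 80.6 to 753 CPM, whereas Bub1 was found in cell q128 at 589 CPM and in the 5 day cell at 32.7 CPM. Ttk, the kinase that recruits checkpoint proteins, was at 604 CPM in cell q132 and 13.7 CPM in cell q10. Pbk, a mitotic kinase, was found in cells q10, q128 and q132 and the 5 day cell at 99.3 to 866 CPM. Aurka, the centrosomal kinase, was found in cells q10, q128 and q132, and also in 1 other uninjured, 1 5 day, 2 other 14 day and 1 OMP 14 day cell.

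Kinetochore genes tie chromosomes to the spindle. Cenpf was at 2477 CPM in cell q10, and at 3023, 1999 and 1395 CPM in cells q82, q128 and q132. Cenpe, a kinetochore motor, was at 2536 CPM in cell q10 and at 1686 and 824 CPM in cells q128 and q132. Nuf2, Spc25 and Ndc80 belong to one complex, yet their proportions differed between cells. In cell q10 Spc25 was at 2753, Nuf2 at 796 and Ndc80 at 731 CPM. In cell q128 the same 3 genes were at 57.4, 1112 and 0 CPM, and in cell q132 at 221.6, 130.3 and 57.7 CPM. Values of single genes thus varied by more than 10-fold among cells that held nearly the whole list.

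Spindle genes showed the same spread. Kif11, the motor that pushes the spindle poles apart, was at 2022 CPM in cell q10 and at 575 and 108.6 CPM in cells q128 and q132. Tpx2, which nucleates spindle microtubules and activates Aurka, was at 1304 CPM in cell q10 and at 532 and 328.3 CPM in cells q128 and q132. Nusap1 was at 1889 CPM in cell q10, 202.3 CPM in cell q132 and 2.07 CPM in cell q128. Kif23, a motor of the central spindle, was found in cells q10, q82, q128 and q132 at 46.5 to 452.8 CPM. Kif20a, another motor of the central spindle, and Kif2c, which shortens microtubules, were found in cells q10, q128 and q132 at 175.7 to 376.1 CPM and 185.3 to 446.2 CPM, and Hmmr, a spindle-associated protein, at 42.9 to 1395 CPM. None of the 7 spindle and motor genes was found in the 5 day cell.

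The genes that end mitosis and those on the chromosomes completed the list. Ube2c, the ubiquitin enzyme of the anaphase-promoting complex, was the single G2 and M gene found in all 5 cells, at 416.2 FPKM in cell q10, 36.5 FPKM in the 5 day cell and 57.4, 155.2 and 436.4 FPKM in cells q82, q128 and q132. Cdc20, which activates that complex, was at 16.9 to 42.4 CPM in the 3 cells where it was found. Top2a, which untangles DNA, was at 4410 CPM in cell q10 and at 1583 and 3273 CPM in cells q82 and q132, but at 22.8 CPM in cell q128 and 0 in the 5 day cell. Mki67, the proliferation marker that coats mitotic chromosomes, was at 364.2 CPM in cell q10, 1177 CPM in the 5 day cell and 858 and 796 CPM in cells q128 and q132, and at 0 in cell q82. Per length, in FPKM, the leading genes were Spc25 and Top2a in cell q10, Nuf2 and Ccnb2 in cell q128, Top2a and Pbk in cell q132, Ccna2 and Mki67 in the 5 day cell, and Top2a and Cdca8 in cell q82. Single markers would therefore have named different cells: Mki67 picked 4 of the 5 and Top2a also 4.

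**Figure D2:**
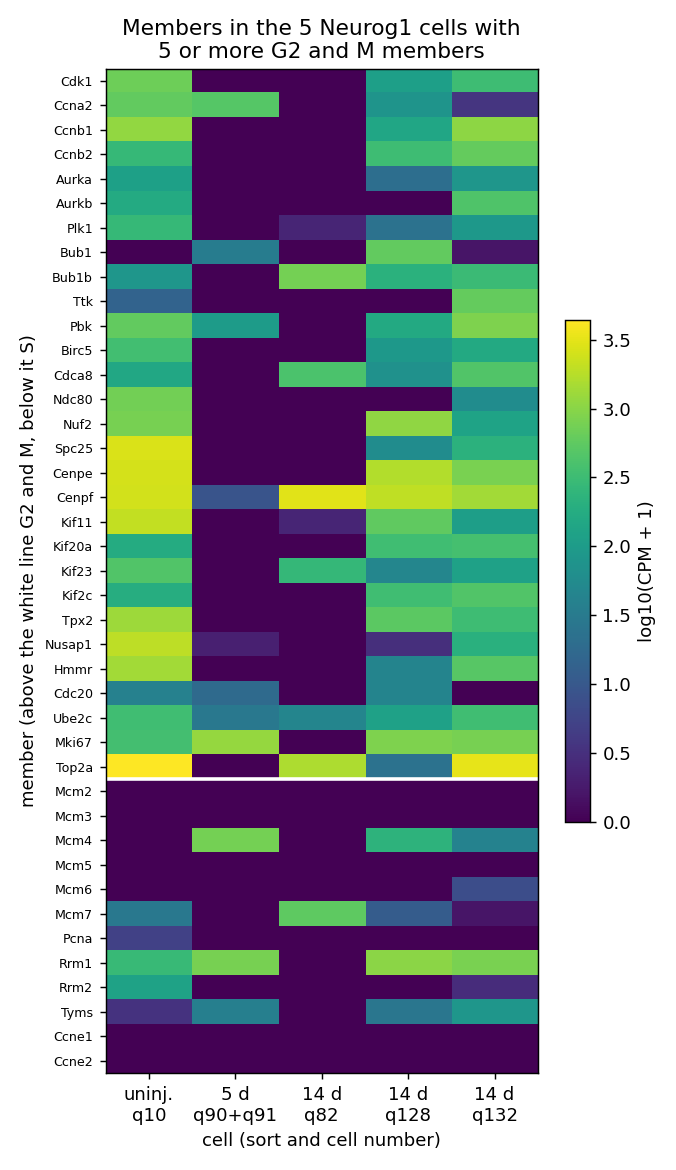
Values of all 41 genes (rows, on a scale of log10(CPM + 1)) in the 5 Neurog1 cells with 5 or more G2 and M genes (columns, named by sort and cell number); genes above the white line belong to G2 and M, those below it to S phase. The columns of cells q10, q128 and q132 are filled nearly throughout above the line, the 5 day cell and cell q82 show 6 genes each, and below the line Rrm1 is present in 4 of the 5 columns.

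The cells with 6 genes differed from the other 3. The 5 day cell held Ccna2, Bub1, Pbk, Cdc20, Ube2c and Mki67. Its libraries agreed gene by gene: all 9 members found in one were found in the other, with Mki67 at 1001 and 1353 CPM and Ccna2 at 525 and 433.3 CPM. Cell q82 at 14 days held Bub1b, Cdca8, Cenpf, Kif23, Ube2c and Top2a, from 33 fragments for Ube2c to 2245 for Cenpf. It had 2013 genes in all, against 3735 and 3868 in cells q128 and q132, and 742676 fragments. Of a list of 56 other mitosis genes it held 0, whereas cells q10, q128 and q132 held 41, 28 and 35.

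The group means rested on these cells. Summed over the 29 genes, the mean was 594 CPM in uninjured, 65.3 CPM in 5 day and 1220 CPM in 14 day Neurog1 cells. The cells past the limit, 1, 1 and 3 in number, held 96.3%, 61.3% and 97.6% of those sums. Outside them, the mean sum was 22.7 CPM in the other uninjured cells, 25.8 CPM in the other 5 day cells and 33 CPM in the other 14 day cells. In the mature neurons it was 25.1 CPM (OMP 14 days) and 63.6 CPM (engrafted OMP). A comparison of means between sorts therefore compares a handful of cells.

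With that limit, members with a mean of 5 or more CPM in either group were compared by log2 ratios of mean CPM + 1, a scale that understates low genes. A member below 5 CPM in 1 of the groups entered through the other, so its direction was fixed by this rule. At 5 days over uninjured, 1 of 23 tested G2 and M genes was 2-fold or more higher and 20 were 2-fold or more lower, where 20.8% of all genes tested were higher and 26.3% lower. Their median log2 ratio was -3.44, against -0.13 for all genes. Only Ccna2, Cenpe and Mki67 reached 5 CPM at 5 days, so the other tested genes could not have been higher there. Top2a averaged 1.33 CPM at 5 days and 95.9 CPM in uninjured cells and cell q10 was the only uninjured cell in which it was found. Mki67 was the exception, at 25.6 CPM at 5 days and 7.92 CPM in uninjured cells. Without the cells that held 5 or more of the genes, 1 gene was 2-fold lower.

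At 14 days over uninjured, 15 of 28 tested genes were 2-fold or more higher and 4 lower, where 22% of all genes tested were higher and 29.9% lower, and the median was 1.14 against -0.17 for all genes. By the limit of 5 CPM, Aurkb, Bub1, Bub1b, Ttk and Kif2c entered through the 14 day sort only. Ccna2, Plk1 and Ndc80 entered through the uninjured sort only. Cdca8 averaged 37.4 CPM at 14 days and 10.8 CPM in uninjured cells, and Kif11, not 2-fold different, averaged 27.4 CPM at 14 days and 44.1 CPM in uninjured cells. Without the cells past the limit, 1 gene was higher and 1 lower. At 14 days over 5 days, 25 of 26 tested genes were 2-fold or more higher and 1 lower, where 23.5% of all genes tested were higher and 27.2% lower, and the median was 4.2 against -0.03. Again only Ccna2, Cenpe and Mki67 reached 5 CPM at 5 days, so the other tested genes could not have been lower at 14 days. Ccnb1 averaged 48.5 CPM at 14 days and was at 0 in every 5 day cell. Without the cells past the limit, 1 gene was higher. These comparisons share their cells, so their counts are not independent.

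The sorts were also set against cells of other kinds. For uninjured Neurog1 over the unsorted reference, 15 of 23 tested genes were 2-fold or more higher and 0 lower, where 22.6% of all genes tested were higher and 32.4% lower, and the median was 1.94 against -0.15. Without the 9 reference libraries of more than 10000 genes these counts were the same 15 and 0 of 23, against 26.1% higher and 30.4% lower of all genes, with a median of 2.41 against -0.03. With all cells, only Ccna2, Ccnb1, Aurka, Plk1, Pbk, Birc5, Cenpe, Kif11, Mki67 and Top2a reached 5 CPM in the reference. The other tested genes could not have been lower in the sort. Cdk1 averaged 15 CPM in the uninjured sort and 1.68 CPM in the reference (1.13 CPM without the 9 libraries). Top2a averaged 95.9 CPM in the sort, all of it in cell q10, and 175.9 CPM in the reference (186.5 CPM without the 9 libraries). Reference cell q326, with 1142 genes and no other G2 and M gene found, held Top2a at 13135 CPM, and without this cell the reference mean was 80.7 CPM, so the direction for Top2a turned on 1 cell. Without the cells past the limit 1 gene was higher and 4 were lower. For Neurog1 at 14 days over OMP at 14 days, 24 of 25 tested genes were higher and 0 lower, where 28.6% of all genes tested were higher and 32.4% lower, and the median was 4.62 against -0.04. Only Kif20a and Kif23 reached 5 CPM in the OMP sort, so the other tested genes could not have been lower in the Neurog1 sort. Top2a averaged 195.9 CPM in the Neurog1 sort, and it was at 0 in every OMP 14 day cell, as Mki67 was. Without the cells past the limit, 1 gene was higher and 2 were lower. Many means were below 3 fragments over their group, and with those set to that floor the medians were -3.36 for 5 days over uninjured, 4.14 for 14 over 5 days and 4.54 for Neurog1 over OMP.

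The G2 and M genes shared sequence features of their promoters that the list was not chosen on. RefSeq promoter windows (GRCm38.p6, 250 bases before to 50 after the annotated start) were matched by symbol for 34 of the 41 genes, 24 of G2 and M and 10 of S phase. Promoters of late cell cycle genes are known to hold a cell cycle homology region (CHR, searched as TTTGAA) and CCAAT boxes (searched as CCAAT), and those of S phase genes E2F sites (searched as TTGGCGC, and also as TTCCCGC). Both strands were searched for each, and E2F matches may overlap one another. The CHR letters were present in 18 of 24 G2 and M genes (75.0%) and in 1 of 10 S genes (Mcm2), against 20.2% of the 27025 genes of the table. CHR and CCAAT occurred together in 16 of 24 G2 and M genes (66.7%) and in 7.97% of all genes. E2F letters were present in 5 of 10 S genes, 3 of 24 G2 and M genes and 7.79% of all genes. CCAAT did not separate the phases, with 19 of 24 G2 and M genes and 8 of 10 S genes, against 41.1% of all genes. A match is a string of letters in the window and not a measured site, and no binding was measured in this study.

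The windows of 4 genes are printed to show these arrangements, 5′ to 3′ on the gene's strand, with the matches in capitals (matches on the other strand read as the reverse complement). Ccnb2 shows evenly spaced CCAAT boxes before a CHR at the start (chr9:70421505-70421804, minus strand). Plk1 shows 1 of each close to the start (chr7:122159185-122159484, plus strand). Top2a has 6 CCAAT and 2 CHR matches (chr11:99024140-99024439, minus strand). Mcm3 has 3 E2F matches, all after the start, and no CHR (chr1:20820263-20820562, minus strand). The E2F matches of Mcm5, Mcm6 and Rrm1 lie before the start, and those of Mcm7, which has 2 windows, lie on both sides.
Ccnb2: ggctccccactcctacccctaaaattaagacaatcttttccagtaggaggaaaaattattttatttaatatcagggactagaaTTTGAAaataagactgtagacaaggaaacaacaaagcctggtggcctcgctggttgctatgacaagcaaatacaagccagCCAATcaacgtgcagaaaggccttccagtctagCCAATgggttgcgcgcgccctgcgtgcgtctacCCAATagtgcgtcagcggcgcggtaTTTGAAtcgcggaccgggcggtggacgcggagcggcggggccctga
Plk1: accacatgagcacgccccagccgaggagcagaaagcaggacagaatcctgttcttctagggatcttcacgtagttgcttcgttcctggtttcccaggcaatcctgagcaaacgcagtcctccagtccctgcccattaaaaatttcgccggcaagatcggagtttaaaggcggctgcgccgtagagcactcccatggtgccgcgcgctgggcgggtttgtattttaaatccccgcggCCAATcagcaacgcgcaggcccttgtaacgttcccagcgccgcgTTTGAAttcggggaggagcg
Top2a: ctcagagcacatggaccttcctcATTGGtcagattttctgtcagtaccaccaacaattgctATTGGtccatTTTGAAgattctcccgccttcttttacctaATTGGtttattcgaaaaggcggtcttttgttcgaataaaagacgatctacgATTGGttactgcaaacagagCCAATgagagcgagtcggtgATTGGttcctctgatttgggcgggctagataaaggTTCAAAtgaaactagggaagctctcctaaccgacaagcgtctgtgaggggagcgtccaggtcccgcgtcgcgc
Mcm3: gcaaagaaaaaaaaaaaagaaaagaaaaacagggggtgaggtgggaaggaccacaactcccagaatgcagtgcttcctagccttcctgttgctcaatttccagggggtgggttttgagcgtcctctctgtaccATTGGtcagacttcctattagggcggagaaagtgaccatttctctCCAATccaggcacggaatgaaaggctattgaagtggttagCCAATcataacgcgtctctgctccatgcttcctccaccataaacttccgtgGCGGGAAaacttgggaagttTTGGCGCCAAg

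In the Ccnb2 window the CCAAT matches begin 87, 54 and 21 bases before the start and a CHR match begins 4 bases after it. In 17 of the 24 G2 and M genes a CHR match lay between 100 bases before and 50 after the start. Of the 3 cells that held most of the list, all held Ccnb2, Plk1 and Top2a, and none held Mcm3. These cells were picked by the G2 and M genes, so no link between motifs and expression can be read from this. Ccnb1, Nuf2, Cenpe and Birc5, whose windows have no CHR letters, were also found in all 3 cells. Mcm2, whose window has them, was found in none.

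**Figure D3:**
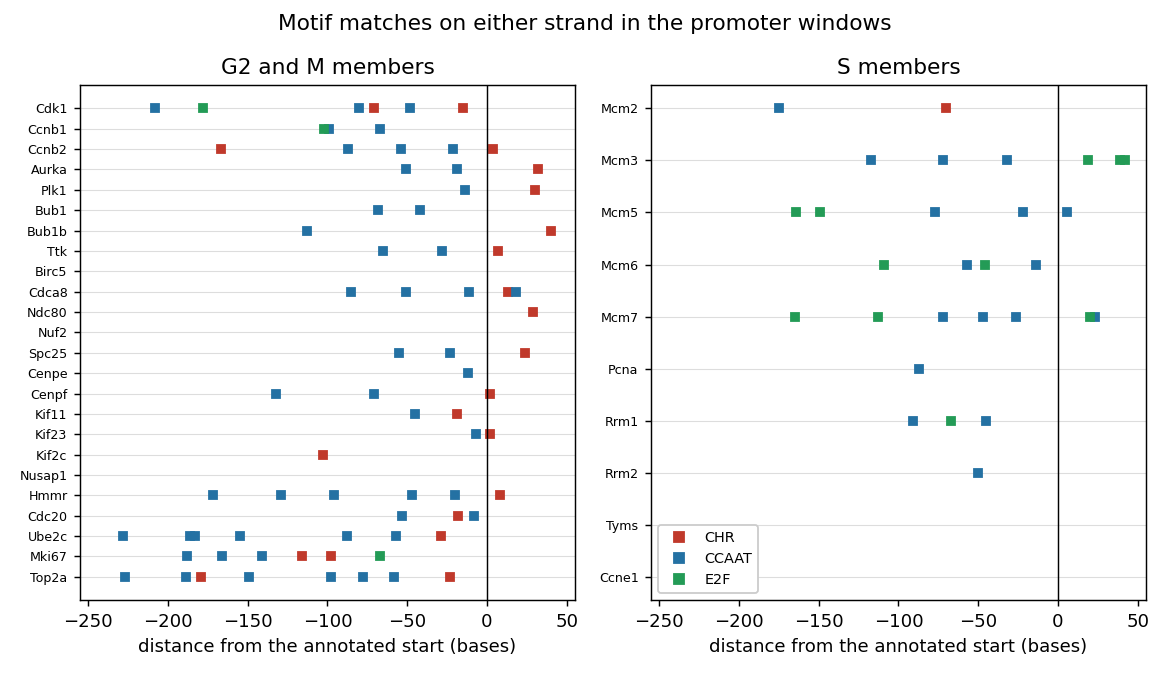
Position of CHR (red), CCAAT (blue) and E2F (green) letter matches relative to the annotated start (0, in bases, horizontal axis) in the promoter windows of 24 G2 and M genes (left) and 10 S genes (right), 1 gene per row. Red marks gather near the start in 17 of the 24 rows on the left and occur in 1 row on the right, where green marks occur in 5 of 10 rows.

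S phase genes were found in many more cells than G2 and M genes. At least 1 of the 12 was found in 32 of 46 uninjured, 30 of 46 5 day and 17 of 25 14 day Neurog1 cells, in 17 of 42 OMP 14 day cells and 11 of 29 engrafted OMP cells. With 3 or more as the limit, 8 of 46 uninjured cells passed (17.4%, exact 95% interval 7.82 to 31.4%), 6 of 46 at 5 days (13%, 4.94 to 26.3%) and 4 of 25 at 14 days (16%, 4.54 to 36.1%). The background was 3 of 42 OMP 14 day cells (7.14%, 1.5 to 19.5%) and 2 of 29 engrafted cells (6.9%, 0.846 to 22.8%). The reference gave 14 cells (10.2%, 5.7 to 16.6%), or 5 cells (3.91%, 1.28 to 8.88%) without the 9 libraries of more than 10000 genes. All these intervals overlap between the Neurog1 and OMP sorts. With 1 sample in each sort, a difference in this share between sorts of progenitors and sorts of mature neurons was not tested.

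The MCM genes, whose products form the helicase that opens DNA at replication forks, were grouped after the values were seen. At least 1 of Mcm2 to Mcm7 was found in 22 of 46 uninjured (47.8%, 32.9 to 63.1%), 16 of 46 5 day (34.8%, 21.4 to 50.2%) and 11 of 25 14 day Neurog1 cells (44%, 24.4 to 65.1%). In OMP 14 day cells it was 3 of 42 (7.14%, 1.5 to 19.5%), with a median depth of 1347935 fragments, the highest of the groups. Each sort is 1 sample, and the difference was not tested. The sorts also differ in strain, which cannot be told apart from the sorted reporter. Among engrafted OMP cells it was 5 of 29 (17.2%, 5.85 to 35.8%). Mcm7 led, in 12 of 46 uninjured, 9 of 46 5 day and 7 of 25 14 day cells against 1 of 42 OMP 14 day and 0 of 29 engrafted cells. Mcm4 was found in 7, 7 and 6 cells of those Neurog1 sorts, 2 OMP 14 day and 5 engrafted cells. Mcm2, Mcm3, Mcm5 and Mcm6 were rarer, found in 3, 1, 4 and 1 of the uninjured cells, in 1 or none of the 5 day and 14 day cells and in no OMP cell. No Neurog1 or OMP cell held 3 or more MCM genes, although their products act as one complex, while 9 reference cells did, 7 of them among the 9 libraries of more than 10000 genes.

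The nucleotide supply genes and the clamp behaved in different ways. Rrm1, the large subunit of ribonucleotide reductase, was found in 12 of 46 uninjured, 9 of 46 5 day and 7 of 25 14 day cells, and in 5 of 42 OMP 14 day cells. Rrm2, the subunit that limits the enzyme, was found in 3 uninjured and 2 5 day cells, in none at 14 days, in 2 of 42 OMP 14 day cells and in no engrafted cell. Tyms, thymidylate synthase, was found in 5, 6 and 4 cells of the 3 Neurog1 sorts and in 1 OMP 14 day cell. Pcna, the clamp that holds polymerases on DNA, was found in mature neurons as well as in the progenitor sorts: 10 of 46 uninjured (21.7%), 11 of 46 5 day (23.9%) and 3 of 25 14 day Neurog1 cells (12%) against 12 of 42 OMP 14 day cells (28.6%), with overlapping intervals. Ccne1, a cyclin of S phase entry, was found in no Neurog1 or OMP cell. Ccne2, its relative, was found in 0, 1 and 3 cells of the Neurog1 sorts, and in 3 of 42 OMP 14 day and 4 of 29 engrafted OMP cells.

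**Figure D4:**
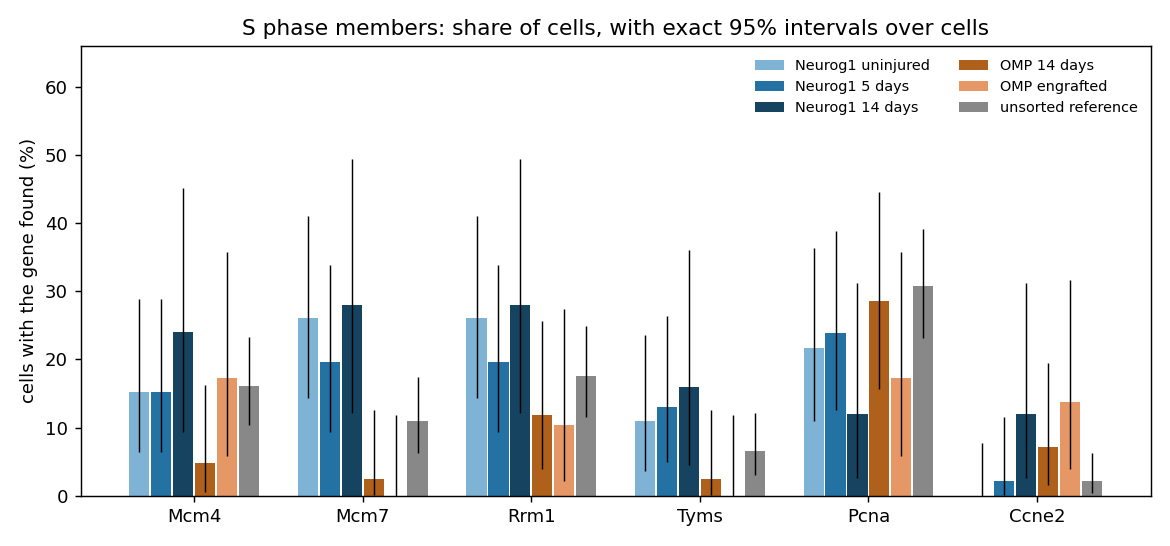
Percentage of cells (vertical axis) in which each of 6 S phase genes (horizontal axis) reached a CPM of 10, by group (colours); bars start at 0 and lines are exact 95% intervals over cells. Mcm7 was found in 26.1%, 19.6% and 28% of uninjured, 5 day and 14 day Neurog1 cells against 2.38% of OMP 14 day cells, whereas Pcna was found in 28.6% of OMP 14 day cells.

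The S genes were set against the same backgrounds, on the same log2 scale of group means, and single cells held less of the summed S signal, although means of single genes could rest on 1 cell. The highest cell held 10.1%, 26% and 17.1% of the summed S signal in the uninjured, 5 day and 14 day sorts, against 96.3%, 61.3% and 46.3% of the G2 and M signal. At 5 days over uninjured, 0 of 9 tested S genes were 2-fold or more higher and 4 lower (all genes: 20.8% higher, 26.3% lower), with a median log2 ratio of -0.72. The 4 were Mcm2, Mcm3, Mcm5 and Rrm2, all with means under 12 CPM in both sorts, and without each gene's highest cell in each sort 1 was lower. By the limit of 5 CPM all 4 entered through the uninjured sort only, so they could not have been higher at 5 days. At 14 days over uninjured, 2 of 10 were higher and 4 lower (all genes: 22% and 29.9%), with a median of -0.31. Of these, Ccne2 entered through the 14 day sort only, so its direction (higher) was fixed. Mcm2, Mcm5 and Rrm2 entered through the uninjured sort only, so theirs (lower) was fixed too. Rrm1 averaged 133.2 CPM at 14 days and 63.6 CPM in uninjured cells, and without the highest cell of each sort 96.3 CPM at 14 days and 43.1 CPM in uninjured cells. Tyms averaged 10.7 CPM at 14 days and 36.2 CPM in uninjured cells, but cell q5 held 72.7% of the uninjured signal, and without it the uninjured mean was 10.1 CPM. At 14 over 5 days, 2 of 7 were higher and 1 lower (all genes: 23.5% and 27.2%), with a median of 0.49. The 2 higher, Mcm3 and Ccne2, entered through the 14 day sort only, so they could not have been lower there. With 7 to 10 genes tested, these shares were not read as a result about the S genes. For uninjured Neurog1 over the reference, 5 of 10 were higher and 1 lower (all genes: 22.6% and 32.4%), with a median of 0.92. Among them Mcm2 and Rrm2 (higher) entered through the Neurog1 sort only and Ccne2 (lower) through the reference only, so their directions were fixed. The counts were the same without the 9 libraries, with a median of 1, and without each gene's highest cell 2 were higher and 0 lower. For Neurog1 over OMP at 14 days, 5 of 8 were higher and 1 lower (all genes: 28.6% and 32.4%), with a median of 1.24. Among them Mcm3, Mcm7 and Tyms (higher) entered through the Neurog1 sort only and Rrm2 (lower) through the OMP sort only, so their directions were fixed. In that comparison Ccne2 averaged 23.3 CPM in the Neurog1 sort and 37.9 CPM in the OMP sort, where 1 cell, q256, held 95% of it. Mcm7 averaged 51.2 CPM in the Neurog1 sort and 0.796 CPM in the OMP sort, while Pcna averaged 27.2 CPM in the Neurog1 sort and 27.9 CPM in the OMP sort. With FPKM values, 3 S genes each were higher over the reference and over OMP.

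Of the 12 S genes, cell q10 held 3 and cells q128 and q132 held 4 and 3, which also puts them at or past the limit of 3. The other cells of the uninjured and 14 day sorts held a median of 1, and at most 4 (uninjured) and 5 (14 days). Mcm2, Mcm3, Mcm5, Mcm6, Pcna, Ccne1 and Ccne2 were found in none of cells q10, q128 and q132. Rrm1 was found in all 3, at 285.2 CPM in cell q10 and at 1019 and 807 CPM in cells q128 and q132. Rrm2 was found in cell q10 only, at 125.7 CPM. Reference cells with up to 10000 genes that passed the G2 and M limit were unlike them: the cell sequenced as libraries q340 and q341, with 15 G2 and M genes, and cell q397, with 17, each held Mcm3, Mcm5, Mcm6, Pcna, Rrm1 and Tyms. The third, cell q394, held 5 G2 and M genes and no S gene. Cell q138, just below the limit at 14 days, held 5 S genes, the most of any Neurog1 cell, with Mcm3 at 279.2 CPM and Ccne2 at 106.7 CPM. It also had the most genes of its sort, 5475, from 211292 fragments, so its Aurka and Mki67 rested on 6 fragments each. The part of this breadth in its S gene count was not tested.

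Other mitosis genes were found in the same cells. Of 56 mitosis genes outside the 41, cell q10 held 41, the 5 day cell 11, and cells q82, q128 and q132 held 0, 28 and 35, where the median of the other cells was 3 in the uninjured and 5 day sorts and 2.5 at 14 days. The condensin genes Smc2 and Smc4, which compact chromosomes, were found in cells q10, q128, q132 and the 5 day cell. Smc4 was at 3949 CPM in cell q10, 16.1 CPM in the 5 day cell and 1458 and 772 CPM in cells q128 and q132. Mad2l1, a spindle checkpoint protein, was at 1246 CPM in cell q10 and at 795 and 865 CPM in cells q128 and q132. Prc1, which bundles the central spindle, was at 1490 CPM in cell q10, 15.9 CPM in the 5 day cell and 514 and 814 CPM in cells q128 and q132. Ncapg2 stood outside this pattern, as it was found in 88.4% of the other Neurog1 cells. Of 45 other replication genes the same cells held 18 (cell q10), 2 (5 day cell), 1, 12 and 14 (cells q82, q128 and q132), where medians of other cells were 3 to 4.

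**Figure D5:**
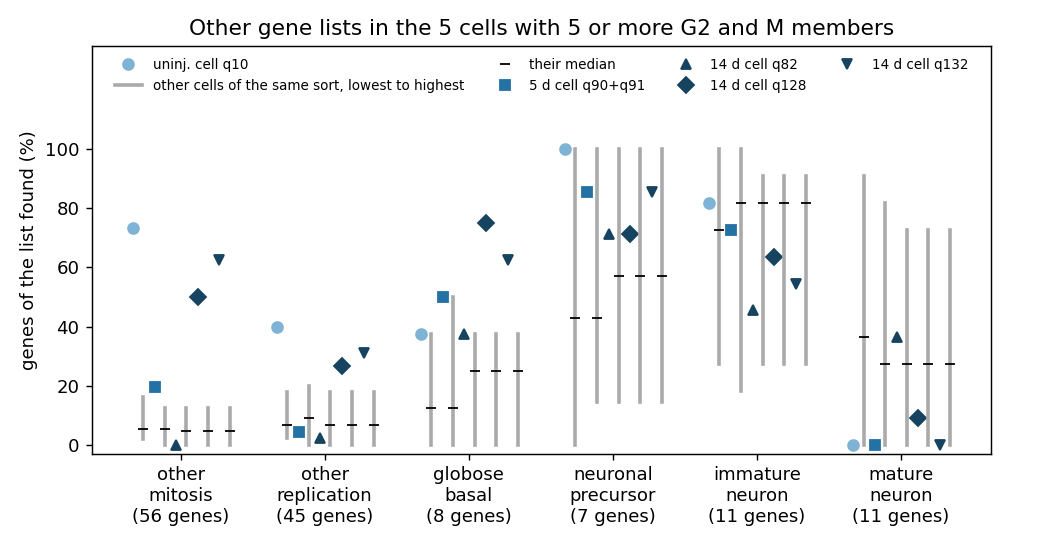
Percentage of each gene list (horizontal axis, list sizes in brackets) found in the 5 cells with 5 or more G2 and M genes (coloured symbols), each beside the range (grey line) and median (black dash) of the other cells of its sort. Other mitosis genes reach 41 of 56 in cell q10 against a highest of 9 in other uninjured cells, and mature neuron markers are at 0 of 11 in cell q10, the 5 day cell and cell q132.

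The 5 cells held most of 7 neuronal precursor markers: cell q10 held 7, the 5 day cell 6, and cells q82, q128 and q132 held 5, 5 and 6. The other cells held a median of 3 (uninjured and 5 days) or 4 (14 days), and up to 7 in each sort. Insm1 was not found in cell q82, Nhlh1 not in cells q82 and q128, and Tex15 not in cells q128, q132 and the 5 day cell. Hes6 and Cxcr4, named next, belong to the globose basal markers. Neurog1, Neurod1, Sox11, Nhlh2, Hes6 and Cxcr4 were found in 5 of 5, while among the other 45 uninjured, 45 5 day and 22 14 day Neurog1 cells Neurog1 was found in 47, Neurod1 in 23, Hes6 in 34, and Cxcr4 and Nhlh2 in 52 each. Sox11 was found in 99.1% of the other cells, so it marks none of them. Neurod1, a proneural factor that follows Neurog1, was at 3329 CPM in cell q10, 2779 CPM in the 5 day cell and 528, 2170 and 2618 CPM in cells q82, q128 and q132. Neurog1 itself was at 67.7 CPM in cell q10, 386.1 CPM in the 5 day cell and 14.8, 346.5 and 159.5 CPM in cells q82, q128 and q132. All 5 were thus among the 52 cells with Neurog1 RNA, and 0 of the 65 cells without it passed the limit. The cells with Neurog1 and Neurod1 and without Gap43 numbered 7, 5 and 4 in the uninjured, 5 day and 14 day sorts and included 1, 1 and 3 of them, a set chosen after the values were seen.

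Genes of earlier globose basal cells were partly present. Of 8 globose basal markers cell q10 held 3, the 5 day cell 4, and cells q82, q128 and q132 held 3, 6 and 5, where the other cells of each sort held 0 to 3 (0 to 4 at 5 days). Kit, a receptor kinase of globose basal cells, was found in 3 of 5 (135.5 CPM in the 5 day cell, 14.5 and 636 CPM in cells q128 and q132) and in 0 of the other cells. Sox2, a factor of basal and supporting cells, was found in 3 of 5 (13.7 CPM in cell q10, 230.7 and 55.2 CPM in cells q128 and q132) and in 2 others. Pax6 was found in none of the 5.

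Genes of postmitotic neurons divided. Gap43, the growth cone protein of immature neurons, was found in 0 of 5 and in 76 (67.9%) of the other cells, and Omp in 0 of 5 and 52 others. Other genes of the immature neuron list were nevertheless present: Ncam1 and Stmn1 were found in 5 of 5, and Tubb3 in 4 of 5 at 865 to 2656 CPM. Ncam1 was also found in 100% of the other cells. Gng8, listed with Gap43 as an immature neuron marker, was found in cells q10, q128, q132 and the 5 day cell. Of the 11 immature neuron markers, cell q10 held 9, the 5 day cell 8, and cells q82, q128 and q132 held 5, 7 and 6. The other cells held a median of 8 in the uninjured sort and 9 in the 5 day and 14 day sorts. Of the 11 mature neuron markers, cells q10, q132 and the 5 day cell held 0, cell q128 held 1 and cell q82 held 4, including Gnal at 499.5 CPM. The other cells of each sort held a median of 3 to 4. Markers of horizontal basal, immune, fibroblast, endothelial and pericyte, glial and erythroid cells were found in none of the 5, and of 8 sustentacular markers the 5 day cell and cell q128 each held 1. Of the Bowman gland and microvillar markers, cell q82 held Sox9 at 67.3 CPM and Coch at 72.7 CPM, and the other 4 cells held none.

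Genes that brake or start the cycle were mixed. Cdkn1b, an inhibitor of cyclin-dependent kinases, was found in 4 of 5 (439.9 CPM in cell q10, 108.2 CPM in the 5 day cell, 221.4 and 62.1 CPM in cells q128 and q132) and in 22 others. Cdkn1a, a related inhibitor, was found in 0 of 5 and 28 others. Btg2, an antiproliferative gene of neural precursors, was found in 4 of 5, with 1473 CPM in cell q132, and in 27 others. Cdk4, the kinase of G1, was found in 4 of 5 and in 53 others, but its partner Ccnd1 was found in 0 of 5 and 23 others. Ccnd2 and Ccnd3 were found in none of the 5.

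Genes outside the 41 were ranked by the ratio of mean CPM in these cells over the other Neurog1 cells, each sort weighted equally. Knstrn, a kinetochore and spindle protein, was found in 5 of 5 at 129.5 CPM or more and in 0 others, and thus also in cell q82, which held none of the 56 listed mitosis genes. Ckap2l, a spindle protein, was found in 4 of 5 and 1 other cell, and Cenpa, the centromeric histone, in 3 of 5 and 2 others. Cenpp, Cdca3 and Pttg1 (securin) also ranked among the 15 highest. The rest had other roles: Mdk, a secreted growth factor, in 4 of 5 and 1 other cell, Crabp2, a retinoic acid carrier, in 4 of 5 and 5 others, Otx2, a homeobox factor, in 3 of 5 and 8 others, Clvs1 in 5 of 5 and 3 others, Ada, adenosine deaminase, in 5 of 5 and 9 others, and Hmgn5 in 5 of 5 and 21 others. Acnat1, Pde7a and Polr2b completed them. The 10 lowest were each found in 0 of 5: Dclk1, a neuronal microtubule kinase, in 89 of the other cells with a mean of 1789 CPM, and Kif5a, Scn3a, Mapk10, Add2, Osbpl8, Lrriq1, Rd3, Plekhb1 and Mslnl in 57 to 76. As the cells were chosen by the G2 and M genes and number 5, these ratios are a description.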

How the data were processed

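The RNA of single mouse olfactory cells was amplified on the Fluidigm C1 and made into Nextera XT libraries. The tools named in the submitters' processing notes are STAR 2.5.2a, FastQC, Cuffnorm and Cufflinks 2.2.1, with the build mm9. Their roles were not stated, and the annotation is not given in the sources used here. A table of signal was deposited by the authors, fragments per gene scaled to almost equal totals per cell, along with their FPKM values. The analysis plan had taken the first table for counts, but 99.4% of its nonzero values were not whole, so it was used as scaled signal and no count test was run. Of 23308 gene entries, 27 with names turned into dates (0.418% of the signal) were left out.

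CPM is the share of a cell's signal sum, scaled to 1000000. Depth was recovered from the smallest step between values within a cell (tolerance 0.02): a median of 98.5% of a kept library's values were whole multiples of it, and the lowest was 96.4%. Libraries needed 1000 genes with a value of 1 or more. Libraries of one group with up to 10000 genes correlating at 0.9 or more in log2(CPM + 1) were averaged and counted as 1 cell, a step added after seeing the data. No doublet caller was run. Groups follow the sample labels.

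Shares have exact Clopper-Pearson 95% intervals, and a share of 0 has the upper limit of 3 counts of the total. These cover counting error only. Ratios were log2 of mean CPM + 1 over genes with a mean of 5 or more CPM in either group, and 2-fold was the limit. Beyond the 41 members, the text names genes of the cell type, mitosis, replication and cell cycle lists, and the 15 highest and 10 lowest ratios of cells with 5 or more G2 and M members over other Neurog1 cells. Those needed a mean of 50 or more CPM and a finding in at least 50% of the cells on the higher side and, for the highest, in each sort. Olfactory receptor, Gm, Rik, LOC and mitochondrial genes were left out. The members and lists were chosen with earlier results of these data known. Calculations used Python 3.11.15, numpy 2.4.6, pandas 2.3.3 and scipy 1.17.1 and were tested on simulated data. Alternatives covered the detection limit, filters, depth (thinning to 200000 fragments), pseudocount, FPKM, reference runs, and cells or libraries left out. Some results on single genes of these lists are not reported here.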

Additional observations from a re-analysis of the deposited data

How the results depend on the processing

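Without the 2 cells of each group with the highest summed member CPM, 1 G2 and M gene was 2-fold lower at 5 days over uninjured, 6 were higher and 0 lower at 14 days over uninjured, 6 higher at 14 over 5 days, 1 higher and 7 lower for uninjured Neurog1 over the reference, and 5 higher and 1 lower for Neurog1 over OMP at 14 days. Without the cells that held 5 or more of the genes, chosen after seeing the data, these counts were 1 lower, 1 higher and 1 lower, 1 higher, 1 higher and 4 lower, and 1 higher and 2 lower. Without each gene's highest cell in each group, also chosen after seeing the data, G2 and M counts were 0 higher and 1 lower at 5 days over uninjured, 14 higher and 0 lower at 14 days over uninjured, 16 higher and 0 lower at 14 over 5 days, 1 higher and 4 lower over the reference, and 16 higher over OMP. The S counts were then 1 lower at 5 days over uninjured, 1 lower at 14 days over uninjured, 2 lower at 14 over 5 days, and 2 higher and 0 lower over the reference. These 3 settings remove cells that hold the genes. The uninjured and 5 day sorts had 1 cell each past the limit of 5 G2 and M genes, the 14 day sort had 3 and the reference 9. Leaving out 1 or 2 cells could thus take all such cells from the first 2 sorts but not from the others. Cell q82 stayed at 14 days when the 2 highest cells were left out. The G2 and M counts in these 2 settings follow from those cell numbers, and no difference between sorts can be read from them. With a pseudocount of 10, 0 genes were higher and 12 lower at 5 days over uninjured, and 0 were lower at 14 over 5 days. With FPKM values 0 were higher at 5 days over uninjured. For uninjured Neurog1 over the reference, 1 gene was lower with libraries of 2000 or more genes, with reference run 1 only, and with the libraries that share a cell kept apart. The cause was not tested. The counts of 2-fold S genes also moved. At 5 days over uninjured, 1 was higher with no filter on libraries, with no limit on the mean, with shared-cell libraries kept apart and without the 2 highest cells, and 0 (FPKM) or 1 (pseudocount of 10) were lower. At 14 days over uninjured, 1 was higher with libraries of 2000 or more genes, with a pseudocount of 10, without the 2 highest cells and without the cells rich in G2 and M genes, and 1 (FPKM) or 2 (pseudocount of 10) were lower. At 14 over 5 days, 1 was higher with FPKM, and 0 (pseudocount of 10), 2 (libraries of 2000 or more genes, no limit on the mean) or 3 (libraries kept apart) were lower. For uninjured Neurog1 over the reference, 3 (FPKM) or 2 (pseudocount of 10) were higher. There, 2 were lower with libraries kept apart, no filter, no limit on the mean or reference run 1 only, and 0 with FPKM, a pseudocount of 10 or either set of cells left out. For Neurog1 over OMP at 14 days, 3 were higher with FPKM and without the cells rich in G2 and M genes, and 0 were lower with FPKM, no filter, a pseudocount of 10 or without the 2 highest cells. The share of 5 day cells with G2 and M genes was 0% with detection at a CPM of 50 and with 10 genes as the limit. The share with 3 or more S genes was 6.52% in uninjured and 4% in 14 day cells with detection at a CPM of 50. It was 37% in uninjured cells with 2 S genes as the limit, and 0% (uninjured), 0% (5 days) and 4% (14 days) with 5. Every other alternative for these shares stayed within its interval. The G2 and M results rest on 5 Neurog1 cells, and the number of cells sets the width of the intervals. No paired analysis was possible because each library has its own number and the groups share none.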
